A study of Caenorhabditis elegans with 21 samples.

Results

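Early embryos of Caenorhabditis elegans that carry mutations in both lin-61 and set-25 were compared with wild-type embryos of strain N2 by sequencing of total RNA. The comparison rests on 6 of the 21 libraries of the series, 3 labelled lin-61 set-25 and 3 labelled N2, and on all 200547 windows of 500 bp into which the 6 nuclear chromosomes of genome build ce10 were divided. Of these, 97353 windows held enough reads to be tested. Reads were counted per window without gene names or strand, so each window is named here by chromosome and start position. Levels are CPM, reads scaled to a common library size, after TMM scaling, which sets the bulk of windows equal between libraries. The members are libraries chosen by genotype label, not by any measured value.

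The double mutant carries set-25(n5021) on chromosome III and lin-61(tm2649) on chromosome I, and N2 (Bristol) carries neither. Both groups were early embryos at about 1 to 300 cells, before the bean stage, grown at 20 °C for 60 to 65 h after synchronised larvae were plated, with the time set per strain. A library held RNA from many whole embryos of mixed stages within this range. No gene names accompany the counts, so the labelled stage could not be checked against marker genes. The titles number 3 replicates where the growth protocol gives 2 independent ones, so the tests measure the spread between libraries, and this spread may be technical. The titles of the N2 libraries begin with the library prefix 875 and those of lin-61 set-25 with 1121. Genotype and prefix therefore cannot be told apart between these groups, and this limit applies to every difference from N2 below.

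SET-25 is a histone methyltransferase that trimethylates lysine 9 of histone H3, a mark of silent chromatin that in this worm is densest on the chromosome arms. LIN-61 is a protein with MBT domains, folds that bind methylated histone tails, and it acts in somatic gene repression. NRDE-3 is the Argonaute that carries small RNAs into the nucleus of somatic cells. The title of the series asks whether LIN-61 and NRDE-3 bring this methyltransferase to its sites by parallel routes.

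The lin-61 set-25 libraries held 23900832 to 26549549 reads and the N2 libraries 54839178 to 67553226. Of these reads, 98.97 to 99.4% and 99.65 to 99.67% lay in tested windows. The 20 windows with most reads over all libraries took 5.36 to 6.73% of reads in lin-61 set-25 and 11.9 to 16.6% in N2, and the TMM factors were 1.13 to 1.25 and 0.758 to 0.788. The double mutant's libraries were less alike: the mean correlation of log2 levels with the other libraries of the genotype was 0.954 to 0.972 in lin-61 set-25 against 0.99 in each N2 library. In 32328 windows that were quiet in the 6 libraries of prefix 875, with at most 2 reads over all of them, the lin-61 set-25 libraries held 0.00989, 0.0130 and 0.0246 CPM per window in libraries b, a and c. The N2 libraries, which helped to choose these windows, held 0.0027 to 0.00591 CPM. A group with 0 reads in a window allows up to 3, or 0.0217 CPM for N2 and 0.0337 CPM for lin-61 set-25. These limits and the intervals of ratios reflect the counting of reads alone. They pool the reads of a group's 3 libraries and leave out the spread between libraries. Reads were also not tied to single molecules by identifiers.

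The labels of the double mutant were compared with windows lost on the chromosomes that the labels name. A window counted as lost where every library of the mutated genotypes held at most 0.25 of the lowest level among the other genotypes, and where that level was at least 5 CPM. The libraries labelled lin-61 met-2 and nrde-3 met-2 were left out of this rule because their labels are in doubt from the same 2 stretches, as their values below show. For lin-61, 3 windows met the rule, and all 3 lay side by side on chromosome I, from 7249001 to 7250500. Their summed level was 9.97, 12.8 and 10.7 CPM in lin-61 set-25 libraries a, b and c, against 104, 95.5 and 105 CPM in N2. The stretch held 9.38 ± 0.288 CPM (SD, n = 3) in lin-61 and 114 ± 17 CPM (SD, n = 3) in nrde-3. The libraries labelled lin-61 met-2 held 106 ± 12.3 CPM there (SD, n = 3), a level unlike that of the other lin-61 genotypes. For set-25, 3 windows met the rule, all on chromosome III from 13288001 to 13289500. There the level was 0.346, 0.448 and 0.527 CPM in lin-61 set-25 and 44.8, 50.1 and 56.2 CPM in N2. The libraries labelled lin-61 met-2 and nrde-3 met-2 were as low as the set-25 genotypes on III, at 0.879 ± 0.164 and 0.555 ± 0.2 CPM (SD, n = 3), although their labels name no set-25 mutation. Low levels in all 3 lin-61 set-25 libraries were required by the rule. The chromosome was not, and both stretches lay on the chromosomes that the labels give for the mutations. The counts do not name the genes there.

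**Figure D1:**
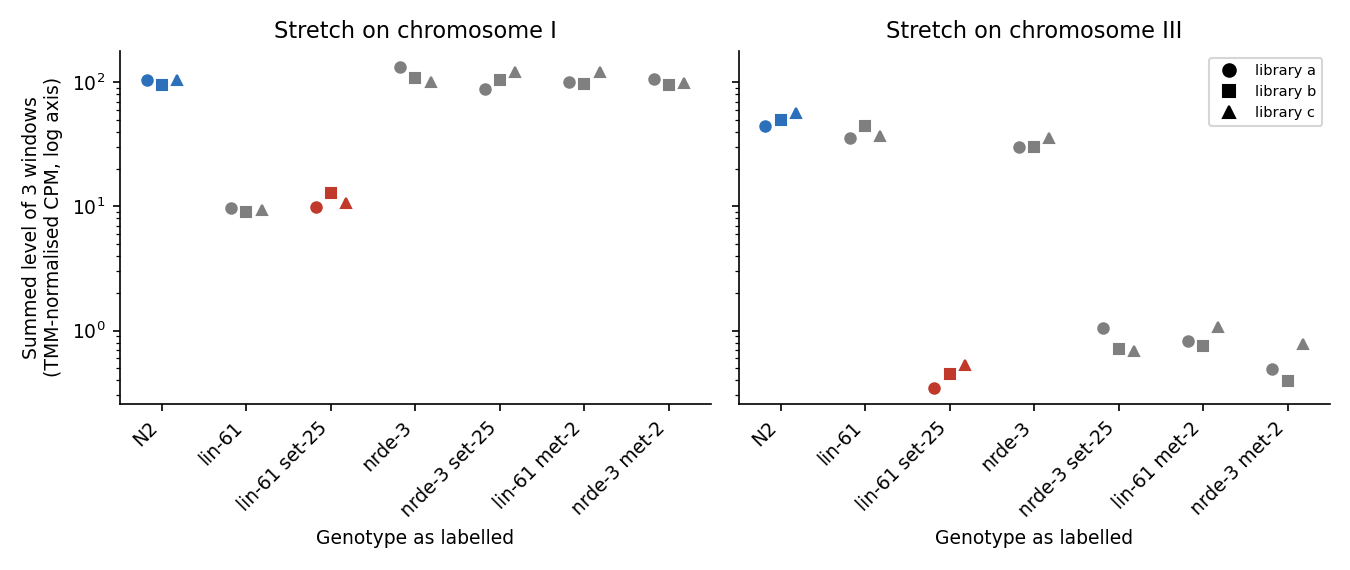
Summed level of 3 neighbouring windows in each library, on a log axis, for the stretch on chromosome I that was low in the lin-61 single and lin-61 set-25 double mutant but not where the label was lin-61 met-2, and the stretch on III that was low in both set-25 genotypes and in both genotypes labelled met-2. The lin-61 set-25 libraries (red) lie at 9.97 to 12.8 CPM on I and at 0.346 to 0.527 CPM on III, below the N2 libraries (blue) in both.

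Changes in the double mutant reached a large share of the transcribed genome. In lin-61 set-25, 23321 of 97353 windows stood above N2 (24%) and 18597 below it (19.1%), in all 43.1%, at a Benjamini-Hochberg adjusted p below 0.05 in edgeR's quasi-likelihood test. The rises were the larger changes: 20233 windows rose by at least 2-fold (20.8%), 11671 by at least 4-fold (12%) and 3133 by at least 16-fold (3.22%). Among the falls, 10452 were at least 2-fold (10.7%), 2015 at least 4-fold (2.07%) and 58 at least 16-fold (0.0596%). The median log2 fold change was 2.0 in the higher windows, -1.08 in the lower ones and 0.06 in all tested windows. No read was found in N2 in 264 of the higher windows and none in lin-61 set-25 in 14 of the lower ones, and with these set at their bound the medians were 2.0 and -1.08. All 3 libraries of one group lay above all 3 of the other in 20645 of the higher windows and 18136 of the lower ones, and over all tested windows such separation was found in 26.9% for higher and 25.7% for lower levels in the mutant. In bulk RNA, a fall cannot be told apart from fewer cells of the type that makes the transcript, nor a rise from more of them.

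The balance between rises and falls depends on the scaling. Without TMM factors, with total reads only, 43943 windows were higher and 6364 lower, so that 87.3% of calls were rises against 55.6% with TMM. The median log2 fold change of all windows was then 0.68 in place of 0.06. With total reads outside the 20 windows with most reads, 38357 were higher and 8098 lower, and 82.6% of calls were rises. All directions below are relative to the bulk of windows, as TMM sets it.

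The direction of change differed by the level in wild type. The classes of level are cut on the N2 values that also enter the fold change, so these shares are a description with no test. The rises began from low levels, with medians of 0.259 CPM in N2 and 1.29 CPM in lin-61 set-25. For windows that fell, the medians were 10.8 CPM in N2 and 4.86 CPM in the mutant. Of the 8667 tested windows under 0.1 CPM in N2, 74.5% rose and 0.0923% fell. Such windows passed the filter on low counts through another genotype, and often through the double mutant itself, so little else was possible for this class. Of windows from 0.1 to 1 CPM, 31.2% rose and 3.7% fell. The lower part of this class also passed the filter only through other genotypes or the double mutant, so these shares are in part set by the filter. The shares were 15% and 24.5% from 1 to 10 CPM, and 4.01% and 44.3% from 10 to 100 CPM. Above 100 CPM, 1.69% of 1416 windows rose and 61.1% fell, and 12.2% fell by at least 4-fold. The median log2 fold change was -0.17 from 1 to 10 CPM, -0.44 from 10 to 100 CPM and -0.80 above 100 CPM.

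**Figure D2:**
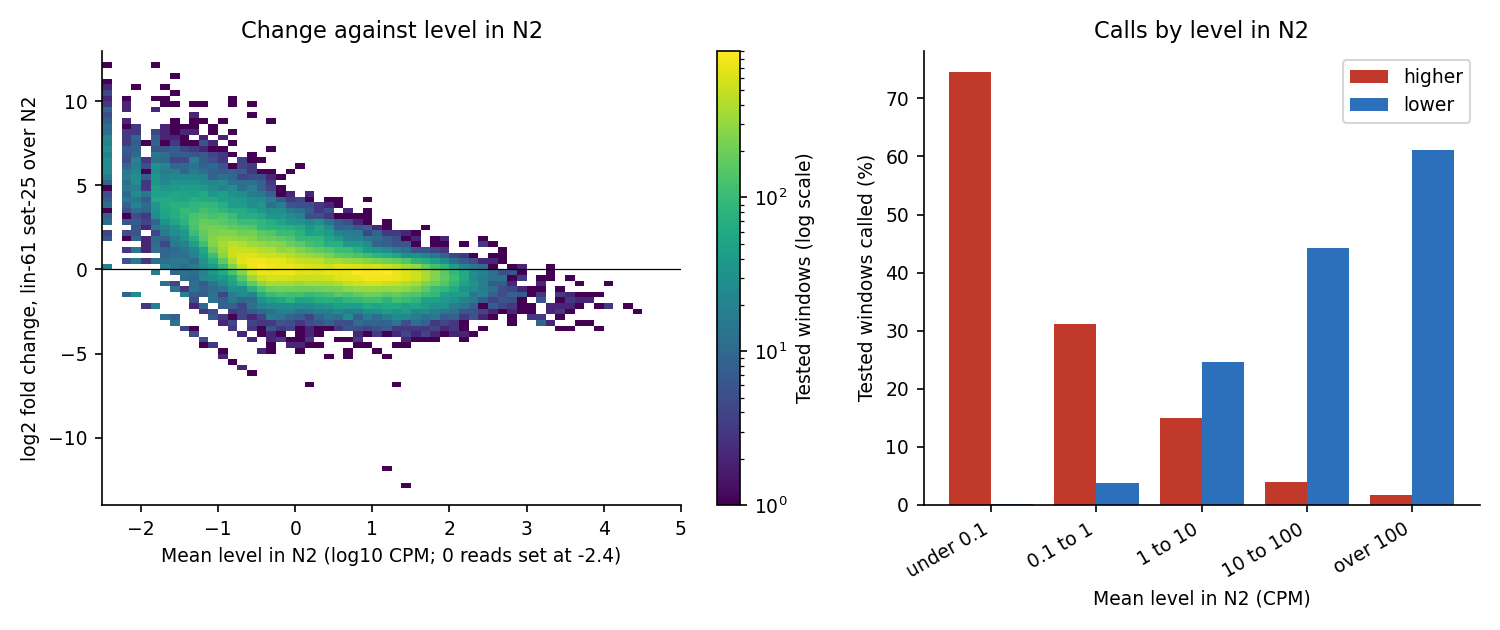
Left, log2 fold change of lin-61 set-25 over N2 against the mean level in N2 for 97353 tested windows, coloured by the number of windows. Right, share of tested windows called higher (red) or lower (blue) in each class of N2 level, with 15% higher and 24.5% lower from 1 to 10 CPM and 1.69% and 61.1% above 100 CPM. The class under 0.1 CPM passed the filter on low counts through other genotypes or the mutant itself, as did part of the class from 0.1 to 1 CPM.

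The share of reads moved with these sets. The windows that rose held 3.54, 3.57 and 2.79% of all reads in N2 libraries a, b and c, and 11.9, 9.13 and 18.5% in lin-61 set-25 libraries a, b and c. The windows that fell held 58, 58 and 59.1% of reads in N2 and 34.1, 35.3 and 29.1% in lin-61 set-25. In both sets the groups do not overlap, as the choice of the windows requires, and lin-61 set-25 library c lay farthest from N2.

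The 12 windows with the highest log2 fold changes, 1 per run of neighbouring calls, were at 0 to 0.299 CPM in N2 and at 12.8 to 261 CPM in the double mutant. They lay on chromosomes II, IV, V and X. X 4354501 held 74.7, 22.2 and 148 CPM in lin-61 set-25 libraries a, b and c, and 0, 0.0229 and 0.0242 CPM in N2. Even the lowest mutant library was far above every N2 library. Over the groups these were 7468 reads against 2, a ratio of 5802 (exact binomial 95% interval 1606 to 47921), with an adjusted p of 9.39e-10 in edgeR's test. II 8358501 held 9.34, 4.48 and 35.9 CPM in lin-61 set-25 and no read in any N2 library. With 1509 reads against 0, its level was at least 782-fold higher in the mutant, taking 3 reads over the N2 group as the floor. V 4647501 reached the highest level of the 12, at 223, 65.3 and 494 CPM in lin-61 set-25 against 0.207, 0.64 and 0.0483 CPM in N2. Its log2 fold change was 9.76 ± 0.80 (SE, adjusted p = 6.73e-09), and the groups do not overlap.

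V 12404001, V 4435001 and V 13411001 rose from 1, 3 and 1 reads in N2, with ratios of 3066 (550 to 121158), 2026 (693 to 9830) and 1818 (326 to 71872). The 4 windows on IV with the largest changes began at 4516501, 7753501, 8825501 and 11226001, and they reached 27.8, 43.6, 27.3 and 12.9 CPM from at most 0.0435 CPM in N2. II 8446501 and IV 11066501 complete the 12, at 21.2 and 13 CPM in the mutant. In all 12 windows the mean of lin-61 set-25 was above that of every other genotype.

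Most of these windows held reads in other mutants as well, though some were at or near 0 in nrde-3. X 4354501 held 5.81 CPM in lin-61, 1.12 CPM in nrde-3 and 22.8 CPM in nrde-3 set-25, and V 4647501 held 22.5, 3.58 and 78.1 CPM. II 8358501 held 0.0308 CPM in lin-61, 0 in nrde-3 and 2.04 CPM in nrde-3 set-25. The mean was above that of N2 in 12 of the 12 windows in lin-61 and in 10 of the 12 in nrde-3, but the windows were chosen for levels near 0 in N2, which leaves little room for another order. Within prefix 1121, the mean of nrde-3 set-25 was above that of nrde-3 in 12 of the 12. These counts are a description with no test.

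**Figure D3:**
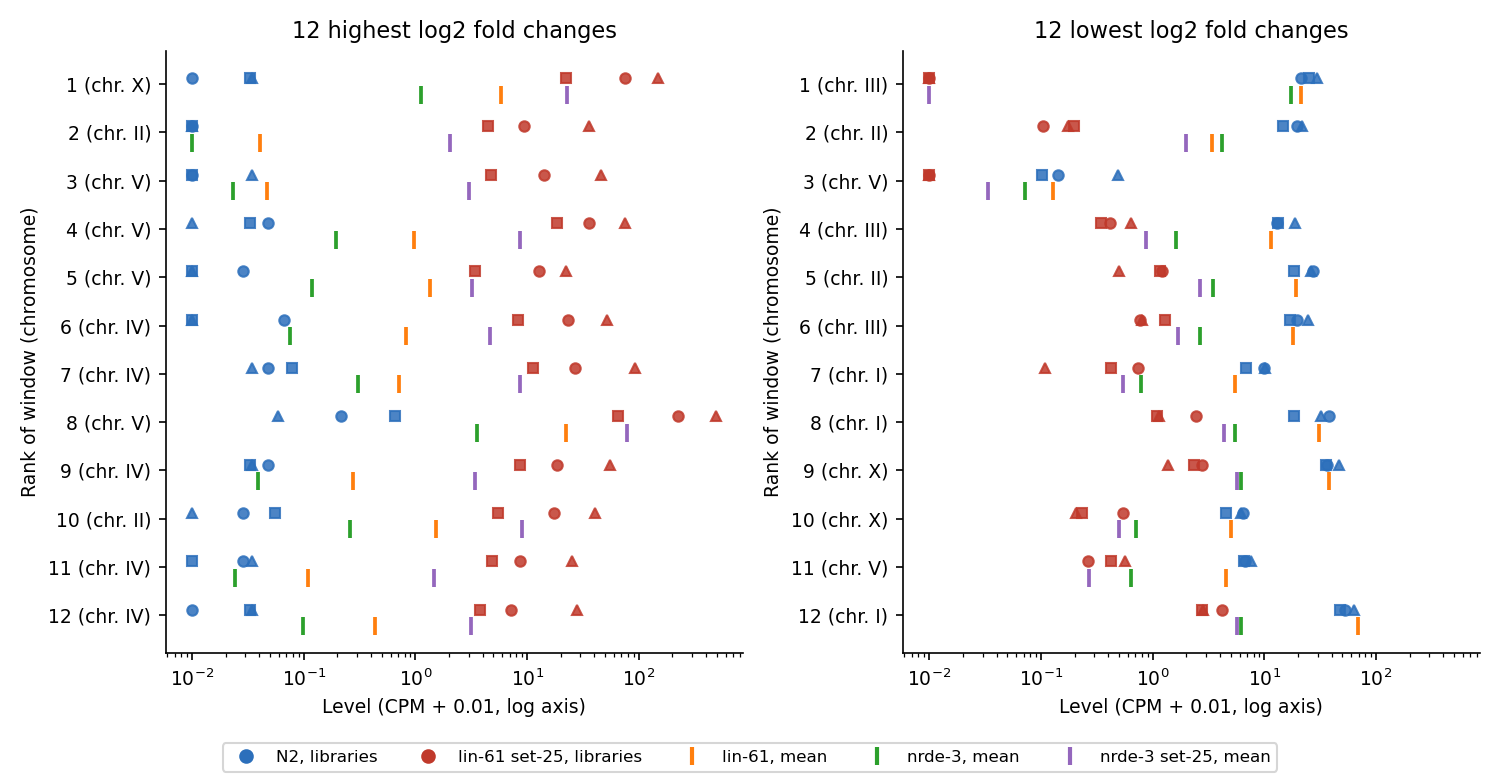
Level of the 12 windows with the highest (left) and the 12 with the lowest (right) log2 fold changes, as CPM plus 0.01 on a log axis. Circles, squares and triangles are libraries a, b and c of N2 (blue) and lin-61 set-25 (red), and ticks are means of lin-61, nrde-3 and nrde-3 set-25. On the left, library c is highest and library b lowest of the mutant libraries in all 12 windows.

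The 3 lin-61 set-25 libraries differed in how far the silent windows rose. In all 12 windows above, library c was highest and library b lowest, with a between them. Among the 23321 windows that rose, library c was highest in 82.2% and library b lowest in 73.2%, and the order c, a, b held in 67.4% of them. Over all tested windows the order c, a, b held in 28.6%. In the windows that fell, library c was lowest in 61.5% and library b highest in 51.4%. The median SD of log2 levels (CPM plus 0.5) over tested windows was 0.264 in lin-61 set-25 against 0.155 in N2 and 0.145 in lin-61. Library c also had the highest level in quiet windows, 0.0246 CPM, and library b the lowest, 0.00989 CPM. Whether this background has a part in the order of the libraries was not tested beyond its subtraction, after which 20726 windows were higher and 17216 lower. Without library c, 16438 windows were higher and 13915 lower.

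Falls in the double mutant were mostly smaller than the rises. The lowest log2 fold change, at III 13288001, belongs to the stretch on III used to check the set-25 label: it held 21.4, 25.2 and 29.4 CPM in N2 and 0 reads in all 3 lin-61 set-25 libraries, at least 741-fold lower. II 4755001 fell from 19.5, 14.6 and 21.7 CPM in N2 to 0.0944, 0.187 and 0.165 CPM in lin-61 set-25. The groups are far apart, and the log2 fold change was -6.95 ± 0.33 (SE, adjusted p = 6.64e-12). This window was also low in lin-61, at 3.4 ± 0.344 CPM (SD, n = 3), in nrde-3, at 4.16 ± 0.774 CPM, and in nrde-3 set-25, at 1.97 ± 0.651 CPM, but lin-61 set-25 was below all of them. V 17308501, next in order, rests on 31 reads in N2 against 0, at an adjusted p of 0.0491, and its call was lost with RLE scaling, with background subtracted, without N2 replicate c and without any 1 lin-61 set-25 library. It passed the level required for naming through 15.9 CPM in the libraries labelled nrde-3 met-2.

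The other 9 of the 12 lowest windows fell to between 0.319 and 3.24 CPM. X 5517001 fell from 36.3, 35.4 and 46.7 CPM in N2 to 2.77, 2.32 and 1.35 CPM in lin-61 set-25, by 4.2 ± 0.27 on the log2 scale at an adjusted p of 4.07e-10. I 10227501 fell from 53, 47.2 and 63.4 CPM to 4.18, 2.73 and 2.8 CPM, by 4.07 ± 0.26 at an adjusted p of 4.49e-10. Both windows were high in lin-61, at 37.9 ± 8.54 and 69.5 ± 15.1 CPM (SD, n = 3), and low in every genotype of prefix 1121. In nrde-3 they held 6.18 ± 0.87 and 6.14 ± 0.588 CPM, and in nrde-3 set-25 5.64 ± 1.38 and 5.72 ± 0.891 CPM. III 5020501, II 12992501, III 10932001, I 12486001, I 11211501, X 8802001 and V 18968001 also had every genotype of prefix 1121 below both of prefix 875. At III 13288001, in the stretch of the set-25 label, nrde-3 held 17.2 CPM against 21.2 CPM in lin-61, and nrde-3 set-25 had no read. Counting this window, the other 4 genotypes of prefix 1121 had means below both genotypes of prefix 875 in 10 of the 12 lowest windows.

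This pattern was common among the falls. In 5528 of the 18597 lower windows (29.7%), the other 12 libraries of prefix 1121 all lay below the 6 libraries of prefix 875, against 6.35% of all tested windows. Among the 23321 windows that rose, the other 12 libraries all lay above the 6 in 672 (2.88%), against 1.35% of all tested windows. The 6 include lin-61, with a median log2 fold change against N2 of 1.12 in the windows that rose and -0.27 in the falls. The pattern was thus harder to meet for rises, and the shares for rises and falls cannot be set against each other. Library prefix thus moved together with 29.7% of the falls. The other 12 libraries are labelled nrde-3, nrde-3 set-25, nrde-3 met-2 and lin-61 met-2, the last 2 of these labels being in doubt. All but lin-61 met-2 name an nrde-3 mutation, so among these 12 libraries prefix can hardly be told apart from loss of nrde-3. At the other end, the 3 lin-61 set-25 libraries lay above all 18 other libraries in 1639 of the windows that rose (7.03%, against 1.8% of all tested windows). They lay below all 18 in 1201 of the windows that fell (6.46%, against 1.32%).

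The most abundant windows that differed were lower in the double mutant than in N2, but not by the comparison within prefixes described further on, where the 4 named here had log2 values of 0.20 to 0.47 and none was called. IV 11338001, the window with the highest level in N2 of those that fell, held 22531, 32084 and 34991 CPM in N2 and 5113, 7705 and 3009 CPM in lin-61 set-25. It fell by 2.50 ± 0.60 (SE) on the log2 scale, at an adjusted p of 0.00169. IV 11407001, IV 11326001 and IV 7488001 fell by 2.01, 2.07 and 2.30 on the log2 scale, from 23610, 12944 and 10760 CPM in N2. In these 4 windows lin-61 held 10302 to 31577 CPM, and nrde-3 held 4007 to 10497 CPM. With all genotypes of prefix 1121 below both of prefix 875, the prefix cannot be told apart from genotype here. Among abundant windows that rose, X 4970001 held 814, 858 and 966 CPM in lin-61 set-25 against 458, 474 and 414 CPM in N2, and rose by 0.97 ± 0.21 (SE) at an adjusted p of 6.66e-04. Log2 fold changes of 1.63, 1.46 and 0.73 were found at I 6844501, III 5108001 and IV 5180001. The call at IV 5180001 was lost without N2 replicate c. In the comparison within prefixes, X 4970001 and IV 5180001 had log2 values of 0.47 and 0.40 and were not called. I 6844501 and III 5108001 had 1.56 and 1.75 and were called higher.

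Called windows of 1 direction lay side by side. Joined across gaps of at most 1 window, the rises formed 8446 regions and the falls 7827, and 81.3% of the higher and 80.3% of the lower windows had a called neighbour in their region. Among the rises, 482 regions were at least 5 kb long and 61 at least 10 kb, and the longest was 49000 bp. Among the falls, 193 regions reached 5 kb and 6 reached 10 kb, up to 11500 bp. The longest rise, on III from 6746001 to 6795000, contained 94 called windows of 98. Its summed level was 595, 281 and 1293 CPM in lin-61 set-25 libraries a, b and c, and 141, 142 and 98.5 CPM in N2. The groups do not overlap, and the mutant libraries differ among themselves by more than those of N2. On V from 6164001 to 6204000, 76 of 80 windows rose, and the sum was 389, 172 and 723 CPM against 57.5, 62.7 and 22.3 CPM. On II from 7724001 to 7752000, 56 of 56 windows rose, and the sum was 194, 90.2 and 371 CPM against 30.8, 39.6 and 12.3 CPM. In lin-61 these 3 regions held 284 ± 61, 270 ± 65 and 115 ± 23.5 CPM (SD, n = 3).

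The longest falls were 2 regions on I and 1 on X. On I from 11200501 to 11212000, 19 of 23 windows fell, and the sum was 150, 142 and 129 CPM in lin-61 set-25 against 448, 419 and 467 CPM in N2. This region held 488 ± 67.3 CPM (SD, n = 3) in lin-61 and 177 ± 19.1 CPM in nrde-3. On I from 12663001 to 12674500 the sum was 75.7, 80.6 and 62.4 CPM against 178, 158 and 194 CPM, and on X from 16962501 to 16973000 it was 126, 88.6 and 83.1 CPM against 256, 247 and 258 CPM. The groups were apart in all 3 regions, and the values for nrde-3 lay nearer to those of lin-61 set-25 than to N2. In lin-61 the region on X held 325 ± 38.8 CPM (SD, n = 3), with all 3 libraries above those of N2. By the comparison within prefixes described further on, the windows with the smallest p in the first region on I and in the region on X, I 11211001 and X 16966001, had log2 values of 0.10 and 0.25, the opposite sign, and were not called. The window with the smallest p in the second region on I, I 12667501, had -1.02 and was called lower.

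**Figure D4:**
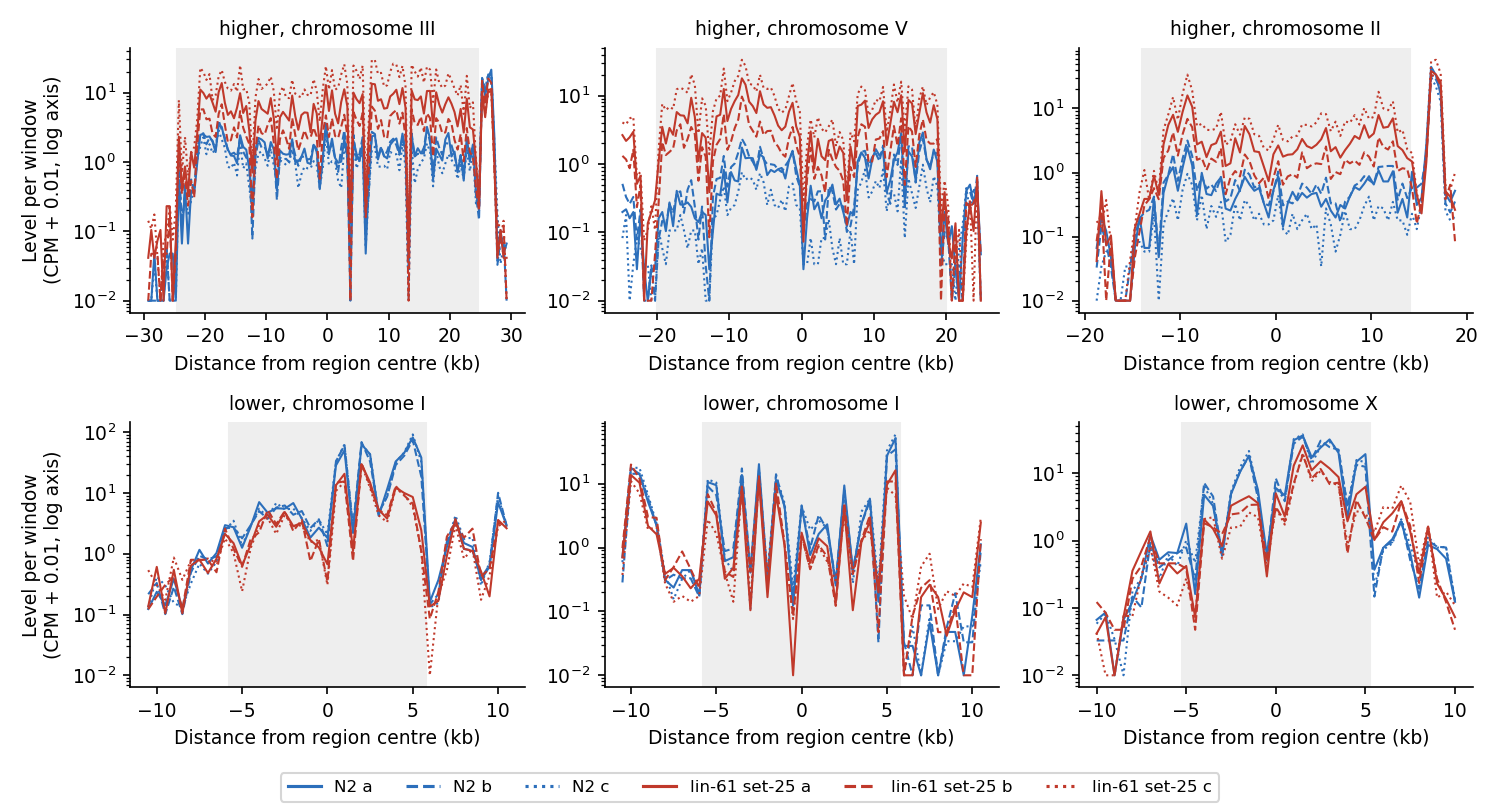
Level per window (CPM plus 0.01, log axis) along the 3 longest regions of rises (top) and of falls (bottom), shaded, with 5 kb on either side, against the distance from the region's centre. Lines are the 3 libraries of N2 (blue) and lin-61 set-25 (red); in the top row library c runs above a and a above b over most of each region.

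Rises were more frequent on V and X than on the other chromosomes. They were also more frequent in the pooled centres than in the pooled outer parts, here the outermost 30% of the length on either side, but not on every chromosome. By chromosome, 30% of tested windows rose on X and 29.7% on V, against 18.2% on III and 20.5% on I. Falls ran the other way, at 16.1% on X and 17.2% on V against 21.7% on III and 20.2% on I. These shares by chromosome were not split by level in N2, with which the share of rises differed. Within each class below 10 CPM, given below, X and the autosomes lay nearer to each other than over all levels, with X still higher. V was not split by level. On autosomes, 25.8% of tested windows rose in the centres and 20.4% in the outer parts. On X the shares were 36.2% and 25.8%. The contrast was small on I, with 21.2% in the centre against 20% and 19.8% in the left and right outer parts. On III the centre, at 18.7%, lay between the left part at 19.2% and the right part at 16.6%. The outer parts of autosomes, where lysine 9 methylation is known to be densest, held 46.5% of tested windows, 39.6% of those that rose and 48.6% of those that fell. Within classes of N2 level, the centres had the larger share of rises in each class below 10 CPM, on autosomes and on X. Under 0.1 CPM, 76.3% rose in autosomal centres and 70.8% in outer parts, and on X 80.9% and 73.1%. From 0.1 to 1 CPM, 37.5% rose in autosomal centres and 26.2% in outer parts, and on X these shares were 41.4% and 28.9%. The filter on low counts shaped this class in part, as said above. The shares from 1 to 10 CPM were 18.1% in autosomal centres and 12.5% in outer parts, and on X 19.9% and 14.8%. From 10 to 100 CPM the autosomal shares were 3.8% and 3.66%, and on X 5.82% in the centre and 6.7% in the outer parts. Above 100 CPM the outer parts had the larger share, but few windows rose. These were 12 of 577 (2.08%) against 10 of 737 (1.36%) on autosomes and 2 of 53 against 0 of 49 on X. No test was made of these shares, since neighbouring windows are not independent.

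**Figure D5:**
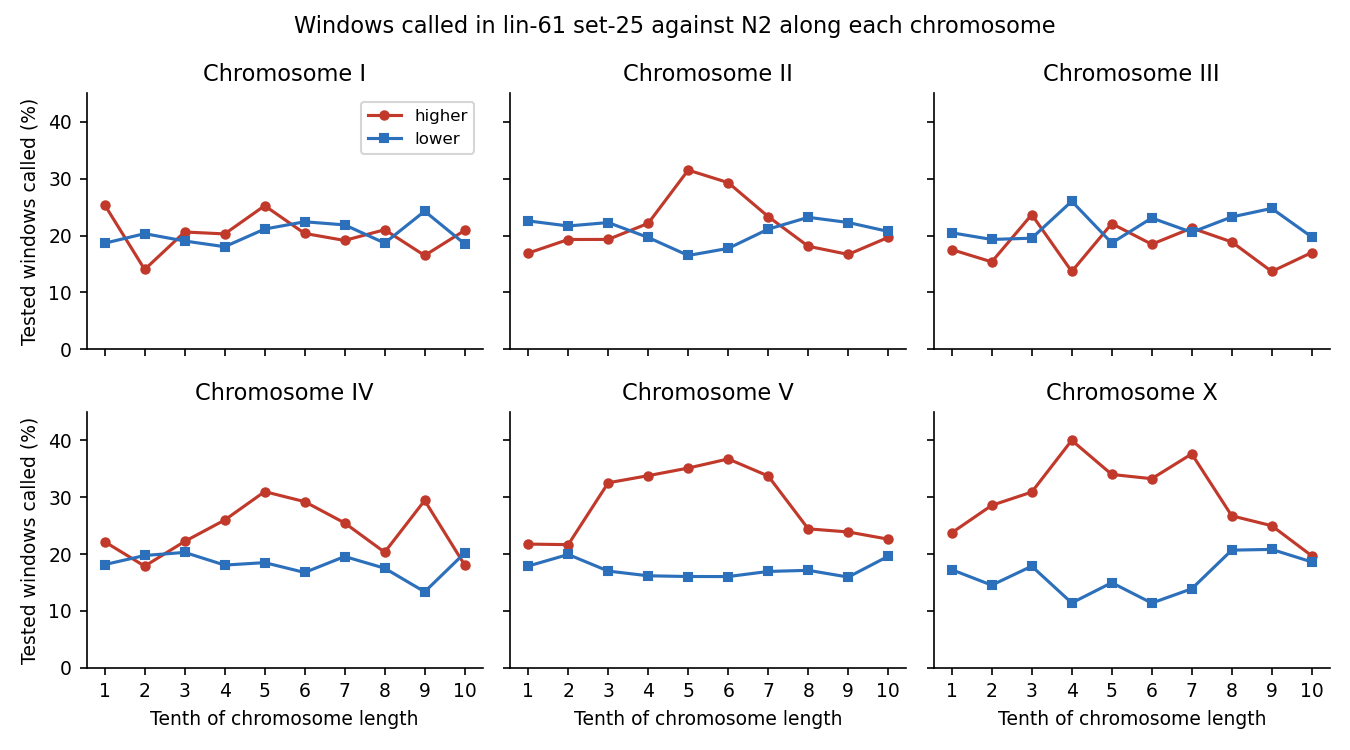
Share of tested windows called higher (red) or lower (blue) in lin-61 set-25 against N2 in 10 equal parts of each of the 6 chromosomes. Rises peak in part 4 of X at 40% and in part 6 of V at 36.7%, while the curves for I and III stay below 30%.

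At a finer scale, 1 Mb bins with at least 500 tested windows ranged from 9.85% of windows higher, on III from 1000001, to 44.3%, on V from 6000001. The V bin holds the second of the long regions above, and 14.3% of its windows fell. The bin with most falls, 28.2%, was on II from 3000001, where 11.3% of windows rose. Of the 6 bins with most rises, 2 lay on V and 4 on X.

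The share of all reads on each chromosome also differed. X took 8.92 to 10.7% of reads in lin-61 set-25 and 7.4 to 7.7% in N2. Chromosome IV, which carries the most abundant windows, took 17.3 to 19.2% against 22.4 to 25%. Its share was also 18.2 to 19.8% in nrde-3 and 18.3 to 21.3% in nrde-3 set-25, both of prefix 1121. In lin-61, of prefix 875, it was 20.3 to 26.4%. V, where rises were frequent, took a smaller share in the mutant, 15.3 ± 0.111% against 16.4 ± 1.28% (SD, n = 3). In each of 8 such measures, 6 chromosomes, quiet windows and the 20 windows with most reads, the 3 libraries of one group lay outside the range of the other. An exact two-sided permutation test gave p = 0.1 for each, the smallest it can give with 3 libraries against 3, and 0.1 after adjustment over the 8. For quiet windows this order was set by their choice, which used the N2 libraries, so that p shows nothing. The 20 windows with most reads were ranked by reads summed over all libraries. The deeper libraries of prefix 875 weigh more in that sum, so this measure was in part set by the choice too. Outside the 20 windows with most reads, X took 9.57 to 11.3% against 8.64 to 8.94%, while the share of II, higher in the mutant over all reads by 0.901 percentage points, differed by -0.0032 points. The groups also overlapped for III, where the difference was 0.492 points against 2.03 over all reads (exact two-sided permutation p = 0.2).

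A comparison free of the prefix can be had only if effects of mutations add on the log scale, as the sum of 2 differences that each lie within 1 prefix: lin-61 minus N2, and nrde-3 set-25 minus nrde-3. It shares the N2 libraries with the main comparison, and it holds no lin-61 set-25 library. By this sum, 13769 windows were higher (14.1%) and 5276 lower (5.42%). Of the windows that rose in lin-61 set-25, 11505 were also called higher by the sum (49.3%), and of those that fell, 2616 were also called lower (14.1%). The share also called by the sum was thus smaller for falls than for rises. These shares are not on an equal footing, because smaller changes are harder to call. Of the falls 10.8% were at least 4-fold, against 50% of the rises. The median log2 value of the sum was 1.97 in the higher windows and -0.48 in the lower ones. All 12 of the highest windows were called by the sum, among them V 4647501 at a log2 value of 10.67. II 8358501 had no read in N2 or nrde-3, so its fitted sum is no bound. Of the 12 lowest, 4 were called, namely III 13288001, where nrde-3 set-25 had no read, II 4755001 at -3.53, V 18968001 at -1.87 and III 5020501 at -1.28. I 10227501 had 0.25 and X 5517001 -0.19, and neither was called.

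Side by side, the 23321 higher windows had a median log2 fold change against N2 of 2.0 in lin-61 set-25, 1.12 in lin-61, 0.60 in nrde-3 and 1.36 in nrde-3 set-25. For the 18597 lower windows these medians were -1.08, -0.27, -0.63 and -0.83. Over all tested windows they were 0.06, -0.04, 0.05 and 0.04. These comparisons share the N2 libraries. In its own test against N2, lin-61 had 10207 windows higher (10.5%) and 1999 lower (2.05%), nrde-3 had 3838 (3.94%) and 8027 (8.25%), and nrde-3 set-25 had 14873 (15.3%) and 13264 (13.6%). Of these, nrde-3 alone had more falls than rises.

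Within prefix 1121, where no wild type was sequenced, lin-61 set-25 had 14524 windows higher (14.9%) and 6608 lower (6.79%) than nrde-3. The largest rises were again II 8358501, V 12404001 and IV 8825501, and the largest falls were III 13288001, II 4755001 and I 7249501. I 7249501 lies in the stretch on I used to check the lin-61 label and held 3.55, 3.55 and 3.29 CPM in lin-61 set-25. Both comparisons use the same lin-61 set-25 libraries, so the 12 windows that rose most against N2 were likely to be high here too. Their values against nrde-3 are given only as a description, II 8358501 being higher by at least 434-fold and X 4354501 by 6.19 on the log2 scale. The counts of calls changed with single libraries: 6710 higher and 1486 lower without lin-61 set-25 replicate c, and 10595 and 2836 without nrde-3 replicate c. With only these 6 libraries fitted they were 7049 and 1133.

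Against nrde-3 set-25, the other genotype with set-25 lost, far fewer windows differed: 1623 were higher (1.67%) and 596 lower (0.612%) in lin-61 set-25. X 372001 was highest, at 51.2, 64.8 and 34.7 CPM in lin-61 set-25 against 3.9 ± 1.12 CPM (SD, n = 3) in nrde-3 set-25. It held 3.03 CPM in nrde-3 and 81.1 CPM in N2, and X is the chromosome that the labels give for the nrde-3 mutation. The lin-61 met-2 libraries, whose labels are in doubt, held 2.91 CPM there. X 6323501 held 18.4 CPM against 1.75 CPM, and 0.0677 CPM in N2. IV 5686001 held 1.29 CPM against 0.128 CPM, and 10.3 CPM in lin-61. The windows that were lowest against nrde-3 set-25 were II 4755001, I 7249501 and V 13556501, with log2 fold changes of -3.71, -3.46 and -2.94. V 13556501 stood at 3.64 CPM in nrde-3 set-25 and at 0.346, 0.374 and 0.691 CPM in lin-61 set-25, near its 0.399 CPM in N2. This count rested on single libraries and on the spread shared with other genotypes. Without lin-61 set-25 replicate c, 295 windows were higher and 171 lower, and without replicate b 5036 and 1063. Without nrde-3 set-25 replicates b or c, 348 and 192 or 393 and 176 were called, and with only these 6 libraries fitted 96 and 66. The 6 named windows kept their calls in each of these fits.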

How the data were processed

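Raw read counts per window of 500 bp, with no strand, were deposited by the authors as 1 table; the genome build was ce10, per the submitters' processing notes. Total RNA (5 µg per library) was cleared of ribosomal RNA and entered a TruSeq mRNA kit from Illumina, per the labels' protocols. The aligner, the counting tool and the treatment of reads with several matches are not given in the sources used here. Columns were matched to genotypes by name, and nothing ties their letters a, b and c to the titles' replicate numbers. A further 6 columns were not matched to a sample and not used here. The annotation at hand is for another build, so windows carry no gene names and no sequence, and gene lists were not run.

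The model was edgeR 4.0.16 in R 4.3.3, with filterByExpr by genotype at a minimum count of 10, TMM, glmQLFit and glmQLFTest. All 21 libraries entered with a coefficient for each genotype, which leaves 14 residual degrees of freedom. SE is the absolute log2 fold change over the square root of F. Alternatives included DESeq2 1.42.0. Windows named are the 12 highest and 12 lowest log2 fold changes, the windows with the smallest p in the 3 longest regions and the 4 windows highest in N2 in each direction. For the comparisons within prefix 1121 they are the 3 highest and 3 lowest. They were taken among calls whose groups do not overlap and whose average log2 CPM reaches 1, with 1 per region. The comparison, the rules and the doubted labels were chosen with earlier results of these data known. The scripts were tested on simulated counts, with 100 windows changed by 1 and 100 by 2 on the log2 scale in lin-61 set-25. Of these, 24 and 100 were called in the right direction, and 2 unchanged windows were called. Far fewer windows changed there than were called in the data, and all changed ones had an average log2 CPM above 1. Tables and figures used Python 3.11.15 with pandas 2.3.3, scipy 1.17.1 and matplotlib 3.10.9.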

Additional observations from a re-analysis of the deposited data

How the results depend on the processing

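For lin-61 set-25 against N2, both counts stayed within 1.5 times the values reported with RLE scaling, without the filter on low counts, with a fit of the 6 libraries alone, without the libraries labelled nrde-3 met-2 and lin-61 met-2, with DESeq2 (24586 higher and 18063 lower), thinned to 22275571 reads per library (19629 and 16663), and with background subtracted. Leaving out 1 library gave 16438 to 25755 higher and 13915 to 19921 lower. The counts moved with the sum of the differences within each prefix (13769 and 5276), and with 2 scalings chosen after seeing the data: total reads (43943 and 6364) and total reads without the 20 windows with most reads (38357 and 8098). By the sum, the sign turned at I 10227501 (0.25), I 11211001 (0.10), X 16966001 (0.25), IV 11338001 (0.47), IV 11407001 (0.31), IV 11326001 (0.33) and IV 7488001 (0.20), and the share of reads on II turned to -0.0032 points outside the top windows; the cause was not tested. Against nrde-3, only the libraries compared gave 7049 and 1133, and leaving out 1 library 6710 to 18578 higher and 1486 to 8865 lower. Against nrde-3 set-25 these were 96 and 66, and 295 to 5036 and 171 to 1063. No paired analysis was possible because the columns carry letters that are not tied to the replicate numbers. Depth limits windows near 0 in N2, where folds rest on 0 to 3 reads.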
